A study of Mus musculus with 4 samples.

Results

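Droplets rich in mitochondrial transcripts are usually discarded from single-cell data, and in mouse thymus they made up 19697 of the 57354 deposited droplets. They were chosen by 2 values of each droplet, at least 200 detected genes and more than 10% of its unique molecular identifiers (UMIs, which count each captured transcript once) in the 13 protein-coding genes of the mitochondrial genome. These are called the high class here, and the 37600 droplets at or under 10% the low class, while 57 droplets under 200 genes belong to neither. The share was the criterion by which the droplets were chosen, so it and the UMI totals behind it are described without a test. All comparisons of other genes were made on nuclear transcripts alone, with the mitochondrial genes left out of the total.

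Thymocytes of gender-matched littermate mice on the C57BL/6 background, 6 to 8 weeks old, were profiled in 4 droplet libraries that read the 3′ ends of polyadenylated transcripts. Control 1 and control 2 were from Tox4 f/f mice, and cKO 1 and cKO 2 from Tox4 f/f mice with the Lck-Cre transgene. The labels number the libraries within a genotype and do not say which animals each came from, so p-values measure the spread between these libraries. Tox4 encodes a DNA-binding HMG-box protein, and all mice carried the alleles with loxP sites around exons 4 to 6. The proximal Lck promoter drives Cre in T-lineage cells from the DN3 stage on, so deletion is limited to that lineage and begins after its earliest cells. Counts of 3′ ends lie outside the deleted exons, so the Tox4 values do not check the genotype: Tox4 stood at 68.82 and 84.96 CPM (counts per unit of nuclear library size, scaled between libraries) in the high class of control 1 and 2 and at 64.1 and 66.5 in cKO 1 and 2.

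Thymocytes pass from double-negative (DN) cells, which rearrange Tcrb, through a burst of division into double-positive (DP) cells, which carry both CD4 and CD8 and rearrange Tcra, and most of these die without being selected. The mitochondrial genome is transcribed inside the organelle, and its polyadenylated messenger RNAs stay there, behind a double membrane, while nuclear messenger RNAs are translated in the cytosol or, for secreted and membrane proteins, on ribosomes bound to the endoplasmic reticulum (ER). Another pool of polyadenylated RNA, such as Malat1 and Neat1, remains in the nucleus.

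The high class held 6092 of 12605 droplets in control 1 (48.3%, 95% exact binomial interval 47.5 to 49.2). It held 2404 of 11746 in control 2 (20.5%, 19.7 to 21.2) and 7195 of 15606 in cKO 1 (46.1%, 45.3 to 46.9). In cKO 2 it held 4006 of 17340 (23.1%, 22.5 to 23.7). These intervals and the others below cover counting error only. Both genotypes had a library near the top and one near the bottom of this range: the mean was 34.4% ± 19.7 (SD, n = 2) in control and 34.6% ± 16.3 (n = 2) in cKO. Control 1 and cKO 1 showed a second hump of droplets near 20% mitochondrial UMIs, as the plot of mitochondrial share by library shows. Libraries shared between 36 and 70 barcodes per pair, at most 0.555% of the smaller library.

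**Figure D1:**
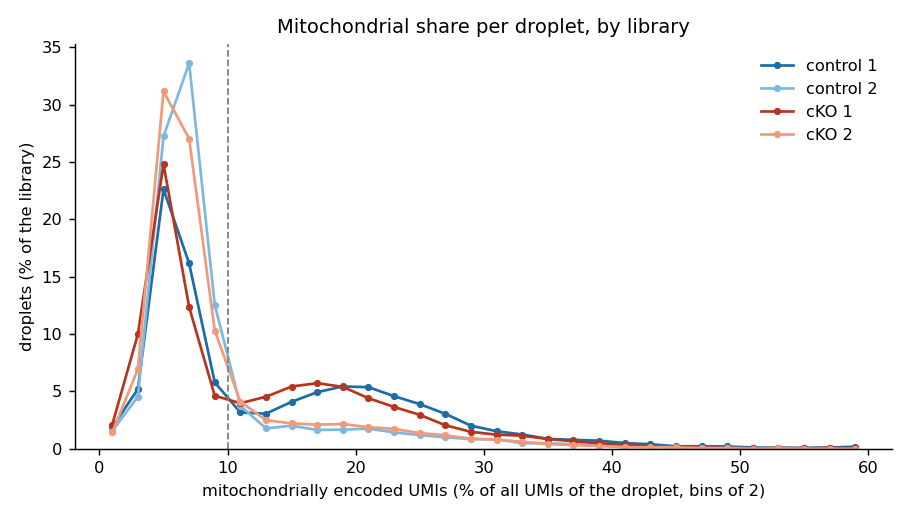
Share of mitochondrially encoded UMIs per droplet (x axis, %, bins of 2, drawn up to 60%) against the share of the library's droplets in each bin (y axis, %), 1 line per library, with the 10% limit dashed. Control 1 and cKO 1 show a second hump above the limit, where they hold 48.3% and 46.1% of their droplets, against 20.5% and 23.1% in control 2 and cKO 2.

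The high class held few nuclear transcripts and an ordinary number of mitochondrial ones. Its median nuclear UMI count was 768 in control 1, 826 in control 2, 802 in cKO 1 and 830 in cKO 2, against 3258, 2764, 3041 and 2368.5 in the low class, so that low droplets held 2.85 to 4.24 times as many. The median number of mitochondrial UMIs was nearly equal in both classes, at 217, 232, 195 and 208 in the high class against 213, 200, 176 and 164 in the low class, a ratio of 1.02 to 1.27. The high class therefore gave 7.11% to 15.9% of a library's nuclear UMIs but 22.8% to 50.6% of its mitochondrial UMIs. Droplets just inside the limit (10 to 11%) had a median of 2112, 2338, 1019 and 1659 nuclear UMIs in the 4 libraries in that order, and those just outside it (9 to 10%) 2859, 2321, 1205 and 1918. Most members lay well past it, with a median share of 18.6% to 21.3% and a maximum of 88.3% to 91.9%.

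Many high-class droplets held thymocyte transcripts. A droplet with at least 1 UMI of Cd4 and 1 of Cd8a or Cd8b1, the pair that defines DP cells, is called DP-gated here, and 43.6% to 53.5% of the high class passed this gate against 51.4% to 66.3% of the low class. Because a deep droplet passes more easily, every droplet was thinned at random to 300 nuclear UMIs, which left out 20 high-class droplets and none of the low class. At that depth 20.2%, 18.9%, 15.1% and 14.2% of high droplets of control 1, control 2, cKO 1 and cKO 2 passed, against 9.70%, 10.0%, 6.41% and 8.20% of low droplets. Cd4, the coreceptor of MHC class II, was seen in 26.3%, 25.3%, 21.3% and 21.2% of high and in 13.9%, 14.9%, 10.7% and 13.9% of low droplets. Droplets gated as phagocytes by at least 3 UMIs over C1qa, C1qb and C1qc, which should lack it, gave 11.6% to 21.2% in the high class, where their median depth was 716 to 1027 nuclear UMIs, and 6.53% to 8.60% in the low class at 955 to 1400. Cd4 and DP-gated shares were higher in the high class in 4 of 4 libraries (exact sign-flip permutation test, two-sided, p = 0.125, the smallest it can give), with the phagocyte background higher there as well.

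Stage markers gave a mixed picture at equal depth. The list of rearranging DP cells (Rag1, Rag2, Dntt, Arpp21 and others) was detected in 62.7% to 77.0% of high and 57.1% to 62.5% of low droplets, the list of selected DP cells (Cd69, Cd5, Itm2a and others) in 21.3% to 23.6% against 14.7% to 17.7%, and each was higher in 4 of 4 libraries. In phagocyte-gated droplets the rearranging list was found in 31.1% to 59.6% of the high and 33.7% to 40.4% of the low class, and the selected list in 6.76% to 20.2% and 9.05% to 14.6%. Rag1 itself, the recombinase subunit, was found in 39.1%, 29.1%, 25.5% and 23.3% of high and in 32.8%, 30.2%, 24.4% and 29.2% of low droplets, higher in 2 libraries and lower in the other 2. In phagocyte-gated droplets the Rag1 share was 8.11% to 25% in the high and 11.7% to 21.1% in the low class. The lists of CD8SP and B cells differed by -0.20 and 0.20 percentage points, with 2 libraries each way. Of 22 shares compared, 17 were higher in the high class in all 4 libraries and 0 were lower in all 4, and 15 were lower in all 4 without thinning. The 17 included 6 of the 8 lists of other cell types, among them those of phagocytes (22.7% to 29.6% against 13.2% to 18.8%), plasmacytoid dendritic cells (42.2% to 45.9% against 26.8% to 32.2%) and thymic epithelium (4.17% to 6.08% against 2.10% to 3.64%), whose part in the stage-marker shares was not tested. The high class held 249 to 256 genes per 300 UMIs against 244 to 249 in the low class, higher in 4 of 4 libraries.

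Nuclear transcripts were summed per library and class and compared with library as a block in edgeR's quasi-likelihood test (Benjamini-Hochberg adjusted p under 0.05, here "called"). Of 13316 genes tested, 4081 (30.6%) were higher and 4098 (30.8%) lower in the high class, 61.4% in all, and these shares are the background for each list below. The split depends on the scaling. Trimmed-mean (TMM) scaling put the median gene at a log2 fold change of 0.03, while plain CPM put it at 0.32 and gave 6510 higher and 2140 lower genes, so values below are relative to the median gene. Since the classes differ in depth, the comparison was repeated on droplets matched on nuclear UMIs within each library (2443 or 23.2% higher and 2327 or 22.1% lower of 10512, 45.4% in all), on droplets thinned to 300 (2586 or 26.1% and 2355 or 23.8% of 9911, 49.9%) and on DP-gated droplets only (3112 or 25.2% and 3053 or 24.7% of 12373, 49.8%). Of 9893 genes tested in all 4 fits, 1666 were called higher and 1597 lower in each of them.

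Ribosomal protein transcripts, which are translated by free ribosomes, fell. They gave 14.1%, 13.4%, 16.5% and 18.5% of nuclear UMIs in the high class of control 1, control 2, cKO 1 and cKO 2 against 22.9%, 22.7%, 25.6% and 25.03% in the low class, with no overlap. Of 84 such genes 82 were tested, 81 of them lower and none higher, with a median log2 fold change of -0.93 ± 0.16 (SD over libraries, n = 4) and -0.48 in UMI-matched droplets, where again 81 were lower. Rps24, a small-subunit protein, stood at 3023, 2825, 3646 and 4034 scaled CPM against 5841, 5836, 7088 and 6616, a log2 fold change of -0.92 ± 0.09 (SE; edgeR, adjusted p = 6.5e-10). The remaining member, Rpl39l, was at low level and did not pass the test (log2 fold change -0.40).

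Transcripts of the cytoskeleton fell with them. All 15 listed genes were lower (median -0.84 ± 0.22, SD over libraries), and all 15 were also lower in UMI-matched droplets, with a median of -0.59. Actb, cytoplasmic actin, measured 3858, 4466, 3275 and 4097 scaled CPM in the high against 6682, 7119, 6034 and 5475 in the low class, the classes lying apart (log2 fold change -0.69 ± 0.09). Pfn1 (profilin, which loads actin monomers) fell by 0.96 and Vim (vimentin, an intermediate filament) by 1.06 on the log2 scale. Of 14 glycolytic genes tested, 10 were lower and 2 higher. Their median was -0.76, and it read -0.23 in matched droplets (7 lower, 2 higher) and -0.36 in thinned ones. Among the cytosolic enzymes Gapdh stood at 600, 672, 583 and 796 scaled CPM against 1538, 1516, 1611 and 1441 (-1.21 ± 0.09), while the 2 that rose were the glucose transporters of the plasma membrane, Slc2a1 (0.96 ± 0.12) and Slc2a3 (0.59 ± 0.12). Of 11 heat-shock genes 7 fell, among them Hsp90ab1 (-1.22), Hsp90aa1 (-1.08) and Hspa8 (-1.08), the cytosolic chaperones, and 1 rose, Hspb1 (1.11), which stood at only 3.17 CPM in the high class.

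Most nuclear genes for subunits of the respiratory chain were lower. Of 76 subunits and assembly partners of the respiratory chain encoded in the nucleus, 72 were lower, 1 (Ndufa13, 0.18) was higher and 3 did not pass, with a median of -0.62 ± 0.15 (SD over libraries) and of -0.36 in UMI-matched droplets. They gave 2.0004% to 2.46% of nuclear UMIs in the high and 2.61% to 2.88% in the low class. Cox4i1, a subunit of cytochrome oxidase, stood at 784, 819, 884 and 1037 scaled CPM against 980, 1041, 1154 and 1123 and fell by 0.29 on the log2 scale. Import and quality-control genes were lower in 15 of 23 cases and higher in 2 (Opa1, 0.22, and Yme1l1, 0.27), Vdac1 and Vdac2, the channels of the outer membrane, falling by 0.75 each. The median of this list was -0.38, and it read -0.20 in matched droplets (3 higher, 9 lower) and -0.08 without TMM scaling (5 higher, 9 lower). Of the factors that copy and express the mitochondrial genome, also called about as often as genes at large, 6 of 14 were lower, among them Tfam (-0.62), which packages mitochondrial DNA, and 2 higher, the DNA polymerase Polg (0.63) and the RNA polymerase Polrmt (0.81). The median of these factors was -0.22, and it read 0.07 without TMM scaling and -0.03 in matched droplets, where 3 were higher and 2 lower.

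The balance of the 13 mitochondrial transcripts among themselves shifted little. mt-Co1 gave 13.3%, 12.75%, 13.03% and 12.2% of mitochondrial UMIs in the high class and 14.4%, 13.9%, 14.1% and 13.4% in the low class. It was lower in 4 of 4 libraries, as were mt-Nd1, mt-Nd5, mt-Nd4l and mt-Atp8, while mt-Atp6 (21.4% against 20.4%), mt-Co3 (21.8% against 21.1%) and mt-Nd2 (3.945% against 3.82%) were higher in 4 of 4. Each of these 8 differences had the smallest p of the exact sign-flip permutation test, 0.125, or 0.203 adjusted over the 13 genes, so none passed. Measured on the log2 scale they ranged from -0.43 for mt-Atp8, which is at or under 0.117% of mitochondrial UMIs, to 0.06 for mt-Atp6.

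RNA that stays in the nucleus was higher. Malat1, a long noncoding RNA of nuclear speckles, made up 4.57%, 5.64%, 4.45% and 4.07% of nuclear UMIs in the high class of the 4 libraries and 2.11%, 2.38%, 1.92% and 2.35% in the low class, with a log2 fold change of 0.80 ± 0.10 (SE) and of 0.41 in UMI-matched droplets. Kcnq1ot1, an unspliced RNA that stays on its chromosome, stood at 719, 678, 1063 and 884 scaled CPM against 367, 426, 480 and 578 (0.85 ± 0.08, and 1.08 matched), and Neat1, the scaffold of paraspeckles, rose by 0.75. Of 6 tested members of the list 5 were higher. The exception was Gas5 (-0.59), a spliced host of small nucleolar RNAs whose transcript reaches ribosomes.

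Sense-intronic and antisense gene models also leaned upward. The annotation of GENCODE release M21, matched by identifier for 13307 of the 13316 genes, names 125 sense-intronic models (noncoding transcripts inside an intron of a gene on the same strand), of which 93 (74.4%) were higher and 1 lower, and 472 antisense models, of which 205 (43.4%) were higher and 37 lower. Among the genes named for the size of their rise, which had to reach 20 CPM in the higher class alone, was Gm32036, an antisense model at 20445286 to 20473490 of chromosome 13 (GRCm38) inside Elmo1, with 27.5, 24.8, 29.3 and 18.9 scaled CPM against 6.53, 8.50, 6.27 and 5.16 (log2 fold change 1.95 ± 0.12, 1.47 when matched). Gm50071, opposite Pdpk1 at 24086864 to 24089879 of chromosome 17, rose by 1.71. A930001M01Rik (opposite Tbc1d22a), Gm49179 (opposite Dzip1) and Gm45509 (annotated as intergenic, opposite Zc3h4) rose by 1.63, 1.62 and 1.62, and 5430431A17Rik, a long intergenic RNA, by 1.51, all 6 of them also higher in the matched, thinned and DP-gated fits.

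Protein-coding genes separated by length. In 5 equal groups by the longest annotated transcript, the shortest (303 to 1937 bases) had 56.9% of its genes lower and 16.2% higher in the high class, and the longest (5188 bases and more) 12.2% lower and 48.6% higher. The median log2 fold change rose from -0.40 through -0.17, -0.05 and 0.10 to 0.25 over the groups, and from -0.33 to 0.22 in UMI-matched droplets. Length was not varied apart from location or function, and their parts in these values were not tested.

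**Figure D2:**
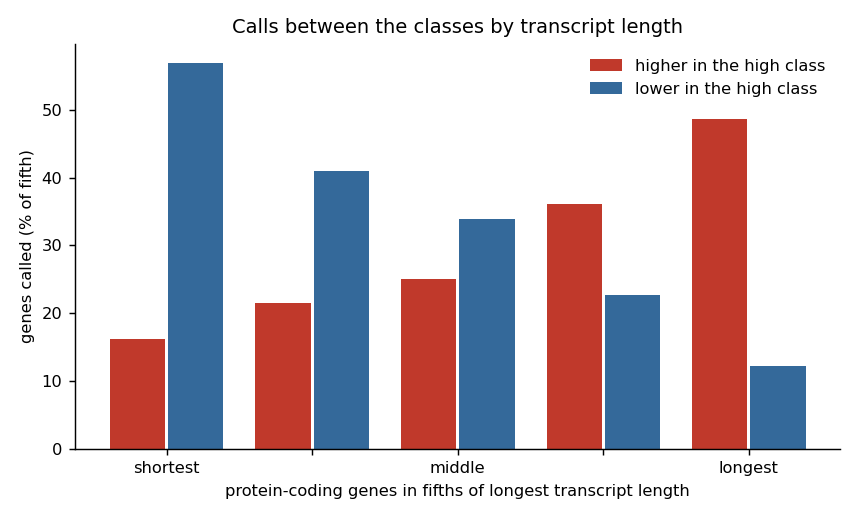
Share of protein-coding genes called higher (red) and lower (blue) in the high class (y axis, % of the genes of each group) in 5 equal groups by the longest annotated transcript (x axis, shortest to longest). Lower calls go from 56.9% to 12.2% and higher calls from 16.2% to 48.6%.

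Transcripts of T cell surface proteins rose. Of 26 T cell surface and MHC class I genes, 21 were higher and 1 (Cd24a, -0.42) lower, with a median of 0.46 ± 0.12 (SD over libraries) and of 0.41, 0.58 and 0.39 in the matched, thinned and DP-gated fits. Cd4 measured 858, 742, 679 and 604 scaled CPM in the high and 389, 403, 302 and 377 in the low class (0.97 ± 0.08). Itgal, the alpha chain of the integrin LFA-1, measured 354, 260, 331 and 273 against 152, 143, 138 and 145 (1.07 ± 0.08), and Ptprc, the phosphatase CD45, rose by 0.97. Cd3g, Cd3d and Cd3e, the signalling chains of the T cell receptor, rose by 0.59, 0.57 and 0.42, while the receptor's constant regions moved less (Trbc1 0.19, Trac 0.31, and Trbc2 -0.04, which did not pass). Of 69 variable segments of T cell receptor genes, 39 were higher and 0 lower. Cxcr4, the chemokine receptor of immature thymocytes, rose from 113, 91.4, 109 and 92.9 to 306, 195, 283 and 178 scaled CPM (1.22, and 1.03 when matched), and Ccr9, another receptor that guides thymocytes, by 0.82.

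Genes of the ER, where such proteins are made, were higher in 15 of 21 cases and lower in 2. Hspa5 (BiP, the main chaperone of the ER lumen) measured 271, 248, 331 and 261 scaled CPM against 187, 160, 198 and 153 (0.67 ± 0.07). Pdia6, a disulfide isomerase, rose by 0.71, Canx, the lectin chaperone calnexin, by 0.51, and Sec61a1, the pore of the translocon, by 0.78. The 2 that fell were Sec61b (-0.86) and Sec61g (-0.61), small tail-anchored subunits of the same translocon. This list was further from the median gene at equal depth, with a median of 0.41 in all droplets, 0.79 in matched and 0.75 in thinned droplets.

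**Figure D3:**
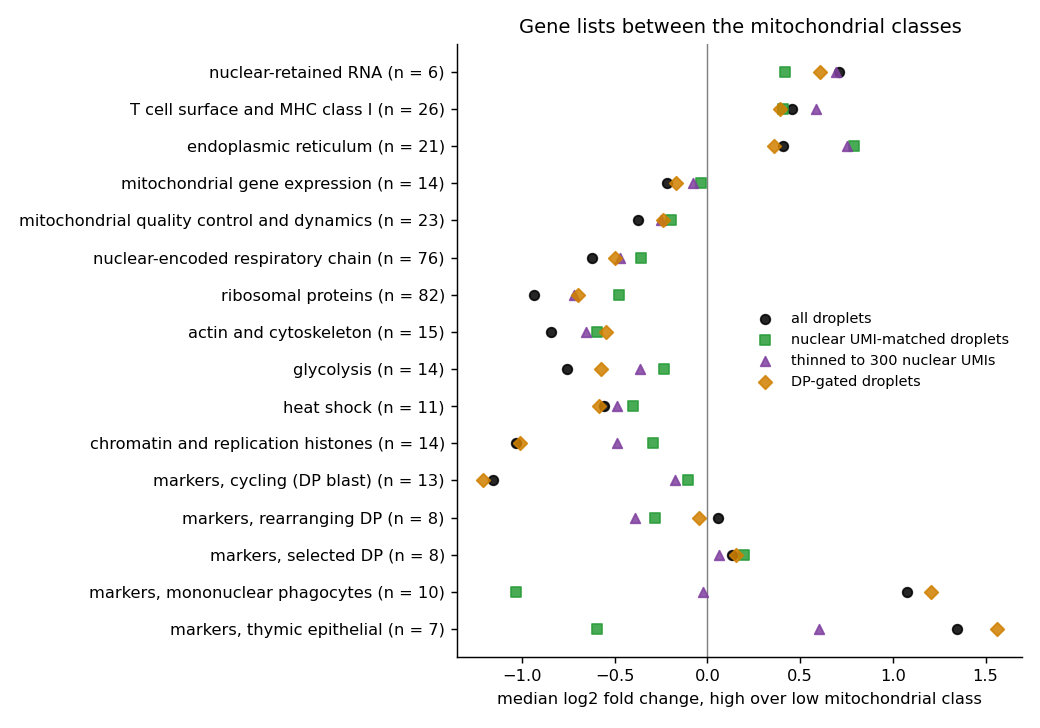
Median log2 fold change of each gene list between high and low class (x axis) for 16 lists (y axis, with the number of genes tested), in all droplets and in 3 alternative sets of droplets (marker shapes). Ribosomal, cytoskeletal and respiratory-chain lists stay below 0 and ER, surface and nuclear RNA lists above 0 in each set, whereas rearranging DP, phagocyte and thymic epithelial markers change side.

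Some gene groups differed between bands of the mitochondrial share. The high class was divided at 20% and 40%: the band from 10 to 20% held 42.9% to 56.6% of it, that from 20 to 40% 40.7% to 49.6% and that over 40% 2.70% to 7.47%. Against the low class, 3262 (30%) and 2844 (26.2%) of 10873 genes were higher and lower in the first band, 3721 (34.2%) and 3253 (29.9%) in the second and 1806 (16.6%) and 1800 (16.6%) in the third, which has the fewest UMIs. In either direction these were 56.2%, 64.1% and 33.2% of genes. The ER list had a median log2 fold change of 0.05, 0.88 and 1.47 in the 3 bands and rose from 0.381% to 0.448% of nuclear UMIs in the first band to 0.728% to 1.44% in the third, against 0.374% to 0.402% in the low class. Hspa5 followed it with 0.14, 1.23 and 2.12, and Rpn2, a subunit of the oligosaccharyltransferase, with 0.09, 0.98 and 1.87. Differences between the bands themselves were not tested.

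Other groups did not keep rising. Malat1 was at 4.54% to 5.14% of nuclear UMIs in the first band and at 2.28% to 3.38% over 40%, where its log2 fold change was -0.05, while Kcnq1ot1 went on from 0.62 through 1.24 to 1.73. Ribosomal protein transcripts had medians of -0.72, -1.11 and -1.07. Cycling markers fell in the first band, to 0.0902% to 0.189% of nuclear UMIs from 0.288% to 0.370% in the low class, and their summed share stood at 0.502% to 0.581% over 40%, above the low class in all 4 libraries. Counted one by one, all 13 markers were lower in the first band (median -1.29), 10 in the second (2 higher, median -0.85) and 7 over 40% (3 higher, median -0.42). Of the 3 higher over 40%, Top2a, the topoisomerase of mitotic chromosomes, read -1.30, 0.26 and 0.96 in the 3 bands and Mki67 -1.11, 0.84 and 1.92. Droplets over 40% also had the most mitochondrial UMIs, with medians of 799 to 1057 against 164 to 213 in the low class, and only 11.01% to 34.5% of them were DP-gated.

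**Figure D4:**
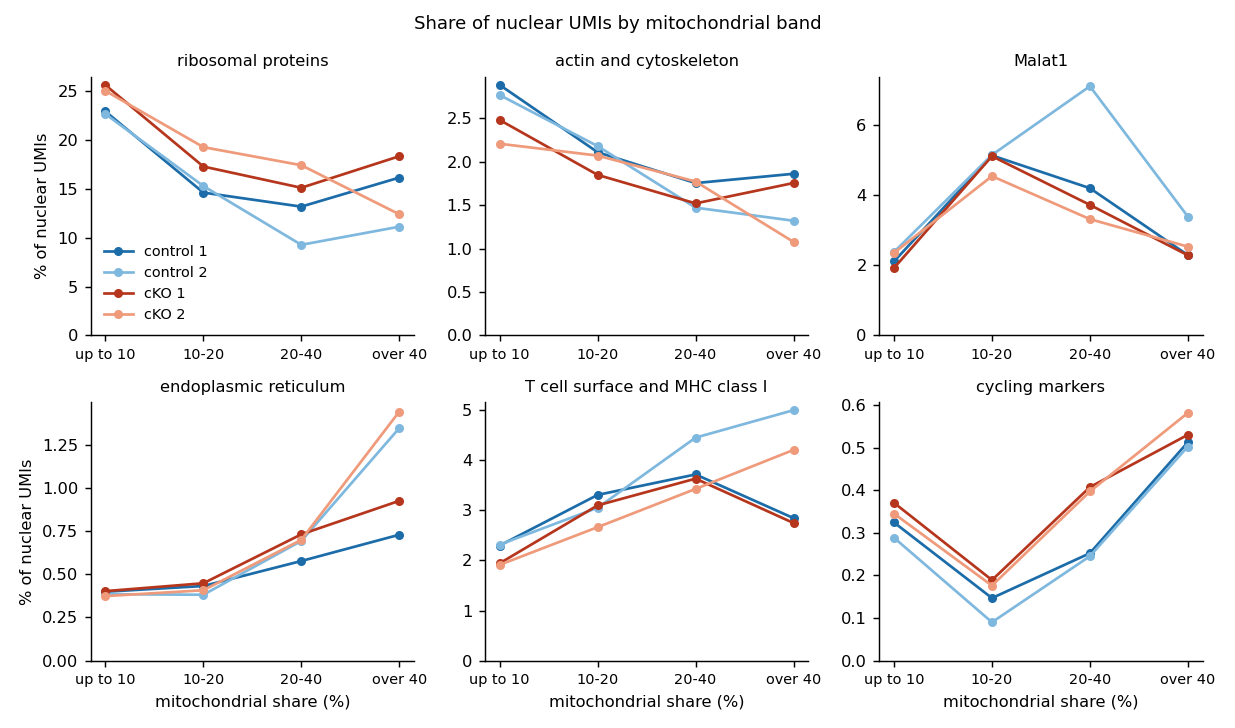
Share of nuclear UMIs (y axes, %) given by 6 gene groups in the low class and the 3 mitochondrial bands (x axis, % of UMIs that are mitochondrial), 1 line per library. ER transcripts rise to 0.728% to 1.44% over 40%, Malat1 peaks between 10 and 40%, and cycling markers dip to at most 0.189% in the first band.

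Values of the cell cycle list depended on which high droplets and which low droplets are set side by side. Over all droplets 12 of 13 cycling markers were lower, with a median of -1.16 ± 0.27 (SD over libraries), Pclaf, a partner of the replication clamp, falling by 1.64 (-0.24 when matched and -0.47 thinned). Mki67, whose protein coats mitotic chromosomes, was the one that did not pass, at 355, 206, 601 and 588 scaled CPM against 345, 303, 449 and 485 (0.06 ± 0.10), and it read 1.96 when matched and 1.07 thinned. The list's median, however, was -0.17 in thinned and -0.10 in matched droplets, and the share of droplets with a UMI of the list at 300 UMIs was higher in the high class (26.3% to 44.0% against 19.0% to 32.9%). No order is read from values that go opposite ways. Histone genes kept their direction: all 14 were lower, with a median of -1.03, and of -0.30 when matched, where 11 were lower. Hist1h2ap, a replication histone, fell by 1.42 over all droplets and read -0.03 in matched ones, where it did not pass.

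Apoptosis genes and p53 targets were called about as often as genes at large (61.4%). Of 20 apoptosis genes 4 were higher and 8 lower, with a median of -0.09, which read 0.20 without TMM scaling, -0.22 in matched droplets (2 higher, 8 lower) and -0.27 in thinned ones (2 higher, 9 lower of 19). Cycs, cytochrome c, fell by 0.94, while Bcl2, the survival protein of the outer mitochondrial membrane, rose by 0.35 and Bmf, one of its antagonists, by 0.64 (-0.22 when matched, where it did not pass). Of 14 p53 targets 3 rose, among them the death receptor Fas (0.58), and 5 fell, among them Bax (-0.53), with a median of -0.15 that read 0.14 without TMM scaling. In matched droplets 0 of 12 were higher and 5 lower (median -0.31), and in thinned ones 1 of 11 was higher and 5 lower. Fas read 0.18 when matched and did not pass. The integrated stress response had 8 of 12 genes lower (median -0.47) and 1 higher, Slc7a11 (1.04), the cystine transporter of the plasma membrane, and its regulator Atf4 fell by 0.26. At equal depth fewer were lower, 4 of 11 matched (median -0.24) and 3 of 10 thinned (median -0.22), where 22.1% and 23.8% of all genes were lower. Immediate-early genes, which react to tissue dissociation, were lower in 4 of 15 cases and higher in 1, with a median of -0.10 that read 0.18 without TMM scaling. In matched droplets 5 of 11 were lower and 2 higher (median -0.11), and in thinned ones 7 of 11 were lower and 2 higher (-0.33).

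RNA of non-T cells moved with the class as well. Phagocyte markers gave 0.155%, 0.191%, 0.167% and 0.202% of nuclear UMIs in the high against 0.0752%, 0.07999%, 0.0995% and 0.0756% in the low class, 9 of 10 higher, and thymic epithelial markers 0.0110% to 0.0182% against 0.00436% to 0.00604%, 6 of 7 higher. Krt18, a keratin of thymic epithelium, measured 46.7, 32.5, 42.5 and 58.8 scaled CPM against 15.2, 10.6, 18.8 and 18.7 (1.51 ± 0.09), and Tbata, Prss16, Ccl21a, Hpgd and Cbr2, also among the 12 genes named for their rise, rose by 1.56, 1.63, 1.67, 1.53 and 1.52. Near-identical copies of Ccl21a can share its reads, so its value is uncertain. In UMI-matched droplets these 6 genes turned to -0.66, -0.60, -0.21, -0.56, -1.04 and -0.70. The medians of the phagocyte and epithelial lists turned from 1.08 and 1.34 to -1.03 and -0.59. In thinned droplets the 6 genes did not turn, at 0.69, 0.67, 0.85, 0.48, 0.39 and 0.87, though Hpgd did not pass. There the medians of the phagocyte and epithelial lists were -0.02 and 0.60. Of stromal and endothelial markers 4 of 5 were higher, with a median of 1.505, 0.07 when matched (3 tested) and 0.77 thinned (2 tested).

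Summed haemoglobin and neutrophil transcripts were lower in the high class, but more of its droplets held a UMI of them. At 300 UMIs the erythroid list was seen in 2.80% of high against 1.34% of low droplets and the neutrophil list in 1.45% against 0.836%, each higher in 4 of 4 libraries, so no order is read. Hbb-bs, the main beta-globin, measured 176, 15.6, 255 and 404 scaled CPM in the high class of control 1, control 2, cKO 1 and cKO 2 against 1579, 1031, 1884 and 1447 in the low class (-3.14 ± 0.27, SE), and all 5 erythroid markers tested were lower. In matched droplets 2 of 4 were lower, with Hbb-bs at -1.15 and Hbb-bt at -0.08 instead of -3.10. In thinned droplets 4 of 4 were lower, with Hbb-bs at -2.85 and Hbb-bt at -2.50. The Hbb-bs value of all high droplets of control 2 rests on 54 UMIs. The near-identical alpha-globin genes Hba-a1 (-2.89) and Hba-a2 (-2.81) can share reads, so that their separate values are uncertain. All 5 neutrophil markers tested were lower too, with a median of -1.69, but 1.25 in DP-gated droplets, and their share in the low class ranged from 0.000661% in cKO 2 to 0.0248% in control 1. In cKO 2 the high class was above the low one, at 0.00242%. The part that RNA of these other cells has in the thymocyte values was not tested. In DP-gated droplets the medians of the ribosomal, ER and surface lists were -0.70, 0.36 and 0.39.

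Stage and lineage markers on the scale of summed UMIs moved unevenly. Rearranging and selected DP lists each had 4 of 8 genes higher and 3 lower, with medians of 0.06 and 0.14, DN markers 4 of 10 higher and 4 lower, and CD4SP markers 2 of 7 higher and 4 lower. In matched droplets the rearranging list had 2 higher and 5 lower (median -0.28, and -0.39 thinned). The DN list had 6 of 9 higher and 0 lower when matched (median 0.86, against -0.26 in all droplets). When thinned it had 4 of 9 higher and 2 lower (0.25). Cd5 and Itm2a, which rise when the receptor signals, were higher by 0.72 and 0.74. CD8SP markers had 3 of 6 genes lower and none higher (median -0.34), but 3 higher and 0 lower in matched droplets (0.24). In thinned droplets 1 was higher and 1 lower (0.19). All 6 gamma-delta genes tested were lower, with a median of -0.91. It read 0.81 in matched droplets (4 of 4 higher) and 0.04 in thinned ones, where 0 of 4 passed. B cell markers had 1 of 6 higher and 2 lower, plasmacytoid dendritic markers 1 of 4 higher (Ccr9, which thymocytes also express) and platelet markers 1 of 2. Splicing factors had 5 of 20 genes higher and 11 lower, with a median of -0.23 that read 0.06 without TMM scaling. When matched they had 6 higher and 2 lower (0.03), and when thinned 6 higher and 6 lower (-0.08). Of rRNA-like models 3 of 3 were higher.

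Genotype was compared within the high class over 2 control and 2 cKO libraries. Of 11886 genes tested 36 (0.303%) were higher and 28 (0.236%) lower in cKO (0.538% called, edgeR), against 11 (0.0772%) and 15 (0.105%) of 14245 in the low class (0.183%). Without TMM scaling the split was 27 higher and 38 lower. The libraries came from pairs of control and cKO mice, and with the replicate number as a block 790 genes were called in the high and 2077 in the low class, so the order of the classes turns with the block. The libraries of both genotypes lay apart for all 64, as they did for 45.5% of all genes tested. Self-tests on simulated counts recovered 98% of genes changed by 1 on the log2 scale here. They recovered 26% of those changed by 0.5, so small differences would mostly be missed. Changes were planted only in genes over 20 CPM, so recovery below that level was not measured. The same self-test made 15 false calls among its 11886 genes.

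The largest rise was that of Cox6a2, a muscle-type subunit of cytochrome oxidase, at 2.29 and 1.73 scaled CPM in control 1 and 2 and 12.04 and 15.8 in cKO 1 and 2 (log2 fold change 2.73 ± 0.32, edgeR adjusted p = 0.0029). Its control values rest on 16 and 6 UMIs. Tspoap1, which encodes a binding protein of the mitochondrial translocator protein, measured 5.74 and 6.05 against 32.9 and 29.3 (2.42 ± 0.21), and Gm41600, Casc1, Fbxl22 and Gm49774 rose by 2.14, 2.002, 1.796 and 1.68. Gm49774 overlaps Hmga1 on the opposite strand. Downward, Gm32004, a noncoding model, measured 142 and 109 scaled CPM in control against 46.1 and 21.6 in cKO (-1.86 ± 0.25). Drc1, a dynein regulator of cilia, read -2.23, Esrp2, an epithelial splicing factor, -2.19, Rbm24 -1.85, Smoc1, a secreted calcium-binding protein, -1.79 and Ncam1, the adhesion molecule CD56, -1.67. Of these 12 genes Esrp2 lost its call when a single library was left out (adjusted p = 0.058 without cKO 1, edgeR), and Cox6a2, Gm41600, Casc1, Gm49774, Drc1, Rbm24 and Ncam1 lost theirs in thinned droplets, which hold fewer UMIs. Cox6a2, Casc1, Drc1 and Ncam1 also lost their call among droplets over 20%, Casc1 and Esrp2 without the top doublet scores, and Esrp2 among DP-gated droplets and at 500 nuclear UMIs or more.

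The 12 genes pointed the same way in the low class, where the log2 fold changes were 1.62 for Cox6a2, 2.12 for Tspoap1, -1.87 for Gm32004 and -1.63 for Drc1. Of 14301 genes 2 passed the test of the difference between the classes (0.014%), both with a more positive difference in the high class (0.014%) and neither among the 64 called genes (interaction term, edgeR, adjusted p = 1 for each of the 12). Both classes come from the same 4 libraries, so the low class is no independent repeat. Cd8a, the coreceptor chain, measured 1646 and 1456 scaled CPM in control and 1140 and 1010 in cKO high droplets (-0.52 ± 0.14, adjusted p = 0.11, edgeR). It passed under 4 of 15 alternatives, with DESeq2 (0.0065), without the count filter (0.0065), with the replicate block (0.020) and without cKO 1 (0.022), and read -0.61 to -0.44 with a library left out. Cd8b1 read -0.15 ± 0.15, and from -0.31 to -0.0077 with a library left out. Cdk1, the mitotic kinase, read 0.34 ± 0.18 with overlapping libraries, and from 0.056 to 0.73 with a library left out, passing without control 1 (0.73, adjusted p = 0.013, edgeR). Tox4 read -0.22 ± 0.14 and did not pass, and it read from -0.38 to -0.072 with a library left out. Among the genes called higher were Mki67 (1.09) and Cenpf (0.75), both of mitosis, Tcrg-C1 (0.83) and Tcrg-C4 (1.33), constant regions of the gamma chain, and Plac8 (1.32), of early thymocytes, chosen here after their values were seen.

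**Figure D5:**
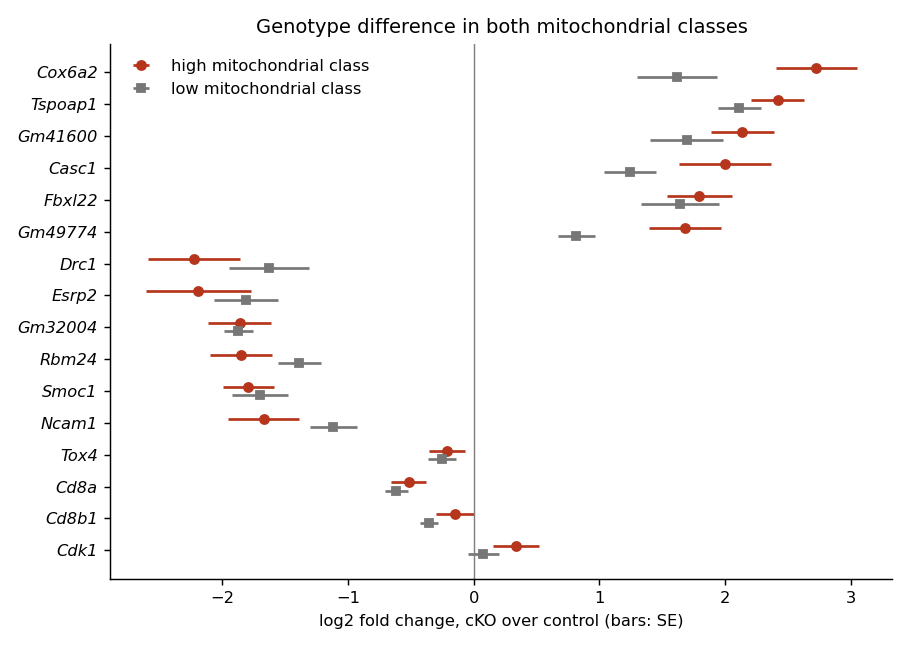
Log2 fold change of cKO over control (x axis, bars are SE from the fit, 2 libraries per genotype) for 16 named genes (y axis) in the high class (red circles) and the low class (grey squares). The 12 called genes keep their side of 0 in both classes, from 2.73 for Cox6a2 to -2.23 for Drc1 in the high class.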

How the data were processed

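Thymocyte libraries were made on the 10x Chromium 3′ version 3 platform. The authors aligned reads to GRCm38 (mm10) with Cell Ranger 6.1.1 and deposited filtered matrices of raw UMI counts per gene and droplet. The study's own filters (genes, UMI outliers, mitochondrial share, doublets) are not applied in these matrices. Library totals were 42716798 to 62007453 UMIs.

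Samples were grouped by genotype from their labels. The members and gene lists were chosen with earlier results of these data known. Droplets with at least 200 genes were classed at 10% mitochondrial UMIs. Counts of the 32272 nuclear genes (13 mitochondrial genes left out) were summed per library and class and tested with edgeR 4.0.16 in R 4.3.3 (TMM, filterByExpr, quasi-likelihood, Benjamini-Hochberg), with library as a block between classes and no block between genotypes. Scaled CPM divides by the TMM-adjusted nuclear total. Matching used bins of 0.05 in log10 nuclear UMIs within a library. Shares of droplets with a marker used 300 UMIs, with exact sign-flip tests over libraries (scipy 1.17.1). Doublets were kept in the main fits, and the top 5% of Scrublet scores (scanpy 1.11.5) were left out as an alternative. Other alternatives were limits of 5, 15, 20 and 40%, UMI outliers left out (2.5% each side), at least 500 nuclear UMIs, DESeq2 1.42.0, no count filter, a replicate block and each library left out. The fits were tested on simulated data.

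Genes named between classes were drawn from Tox4, examples of the lists and 12 called genes in each direction. The 12 had the largest change among genes that moved alike in 4 libraries and reached 20 CPM in the higher class. Of the 12 lower ones the globins and Pclaf are given. Between genotypes the named genes were Tox4, Cd8a, Cd8b1, Cdk1 and the 6 called genes in each direction with the largest change and no overlap of libraries. Cxcr4 and Ccr9 and the genes said to be so were chosen after their values were seen. Some items are not reported here.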

Additional observations from a re-analysis of the deposited data

Results flagged for a closer look

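Camp and Ngp, both neutrophil granule proteins, were the 2 genes of 14301 (0.014%) whose cKO against control difference itself differed between the high and the low class (interaction term, edgeR, adjusted p = 0.00026 for each). The log2 difference of the differences was 4.93 ± 0.52 (SE) for Camp and 4.51 ± 0.48 for Ngp. Camp counted 15 and 1 UMIs in the high droplets of control 1 and 2 and 30 and 9 in those of cKO 1 and 2, against 638, 268, 59 and 12 in the low droplets. Ngp counted 21, 2, 37 and 2 UMIs in the high and 715, 615, 66 and 12 in the low droplets of the same libraries. High-class counts were small in each library, and the large values lay in the low class of both control libraries. With UMI outliers left out, and in matched or DP-gated droplets where tested, neither passed.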

How the results depend on the processing

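The genotype difference in the share of droplets over the limit was 0.205 percentage points at 10%. It became -7.27, -1.85, -3.08 and -0.885 at limits of 5, 15, 20 and 40%. At 10% it ranged from -13.7 to 14.1 when single libraries were left out. These are given as values since the share chose the droplets. The count of genes differing between the classes was 4770 in UMI-matched and 4941 in thinned droplets (the latter chosen after seeing the data). The genotype count in the high class was 25 over 20% mitochondrial UMIs, 28 without the top Scrublet scores, 9 thinned (chosen after seeing the data), 128 with DESeq2, 480 without the count filter, 790 with the replicate block and 148 to 416 with a library left out, and in the low class 922 without the filter and 2077 with the block. The mice were analysed as 2 pairs of control and cKO, but no source used here ties the replicate numbers to the pairs. Over genes, the log2 difference between control 1 and control 2 correlated with that between cKO 1 and cKO 2. The coefficient was 0.204 in the high and 0.267 in the low class. The interaction count was 16 over 20%, 10 DP-gated, 22 without the filter, and 0 with UMI outliers left out (298 at unadjusted p under 0.05, edgeR) and in matched droplets (277).

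Directions that turned included these. In matched droplets Ccl21a read -0.56, Prss16 -0.21, Tbata -0.60, Hpgd -1.04, Cbr2 -0.70 and Krt18 -0.66. Each of these genes stayed positive in thinned droplets. List medians in matched droplets were 0.81 (gamma-delta), -1.03 (phagocytes), -0.59 (thymic epithelial), 0.86 (DN), 0.24 (CD8SP), -0.28 (rearranging DP) and 0.03 (splicing). Without TMM scaling (chosen after seeing the data) medians were 0.072 (mitochondrial gene expression), 0.14 (p53 targets), 0.20 (apoptosis), 0.18 (immediate-early), 0.06 (splicing) and 0.03 (DN). Tox4, near 0 between classes, read -0.036 over 20%, -0.029 without outliers, -0.0028 matched, -0.0030 DP-gated, -0.10 without the filter and -0.028 to 0.034 with a library left out. Without TMM scaling Tox4 read 0.295 ± 0.070 (SE) and passed (adjusted p = 0.0012, edgeR), where the median gene stood at 0.32. Ngp read -0.90 DP-gated. mt-Nd1 was 0.0729 percentage points higher without outliers. Unthinned marker shares differed by -16.6 (DN), -6.50 (cycling), -2.20 (rearranging DP), -13.9 (selected DP), -13.9 (CD4SP), -12.7 (phagocytes), -9.44 (plasmacytoid dendritic), -2.92 (thymic epithelial), -0.827 (erythroid), -0.431 (neutrophil), -12.1 (stroma), -10.7 (Cd4), -11.3 (Cd8a), -4.09 (Cd8b1), -7.24 (Ptcra), -3.91 (Mki67) and -11.0 points (Cd4 with Cd8). The cause was not tested, except that unthinned droplets of the low class hold more UMIs.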
